A study of Mus musculus with 10 samples.

Results

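The 9 transcription factor genes described here, Hnf4a, Foxa1, Foxa2, Foxa3, Cebpa, Cebpb, Onecut1, Nr5a2 and Prox1, were taken by symbol from the 18055 genes listed in any library, and all 9 were found. Each passed the filter on low counts. They were measured by RNA sequencing in primary hepatocytes, the parenchymal cells of the liver, taken from wild-type mice of strain C57BL/6 and kept in culture. There were 5 groups of 2 libraries each. Vehicle cells received no free fatty acid (FFA). PA cells received 200 µM palmitate and LA cells 12 µM linoleate, each for 24 h. PA+NTP and LA+NTP cells were pretreated for 1 h with Neurotropin (NTP), a protein-free extract of inflamed rabbit skin used against chronic pain, before the same FFA, at 0.4 NU/mL by the study's methods. No group with NTP alone was analysed here, and PA and LA were given at different doses, so their values stand side by side without a direct comparison. The ages of the mice and the number of animals behind a library were not stated in the labels or methods, so the p-values measure only the spread between these libraries, which may be technical.

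These 9 genes encode proteins that hold hepatocytes in their differentiated state. HNF4A is a nuclear receptor that binds the promoters of many liver genes, including those of apolipoproteins and clotting factors. FOXA1, FOXA2 and FOXA3 are forkhead factors that open chromatin during liver specification and stay bound in the adult organ. CEBPA favors metabolic genes and quiescence, while its relative CEBPB is induced in the acute-phase response and after liver injury. ONECUT1, also called HNF6, acts upstream of several of these factors in the developing liver and biliary tree. NR5A2, or LRH-1, drives bile acid and cholesterol genes, and the homeobox protein PROX1 binds HNF4A and NR5A2 as a corepressor. The factors bind each other's promoters and are often described as a cross-regulating network.

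The promoters of the 4 genes that were called lower with PA, and of Cebpb, which lay higher, are shown because the results turn on these genes. Each run holds the 250 bases before a start of the gene in RefSeq, build GRCm38.p6, on the strand of the gene. Matches to the searched motifs are in capitals. Where RefSeq gives several starts, as for Hnf4a and Prox1 with 2 each, the start nearest that of the listed GENCODE transcript was taken. The RefSeq starts taken for Hnf4a and Prox1 lie 33 and 113 bases from the starts of the GENCODE transcripts used for GC content. The Hnf4a window lies inside the gene, which begins at 163506808 in GENCODE, and the window at its other start is not shown.
Hnf4a, plus strand, chr2:163546905-163547154: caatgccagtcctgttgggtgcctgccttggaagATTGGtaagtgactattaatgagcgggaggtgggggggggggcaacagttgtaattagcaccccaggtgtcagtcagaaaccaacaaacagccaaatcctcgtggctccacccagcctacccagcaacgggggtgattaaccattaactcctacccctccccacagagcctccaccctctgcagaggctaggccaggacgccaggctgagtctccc
Foxa3, minus strand, chr7:19023540-19023789: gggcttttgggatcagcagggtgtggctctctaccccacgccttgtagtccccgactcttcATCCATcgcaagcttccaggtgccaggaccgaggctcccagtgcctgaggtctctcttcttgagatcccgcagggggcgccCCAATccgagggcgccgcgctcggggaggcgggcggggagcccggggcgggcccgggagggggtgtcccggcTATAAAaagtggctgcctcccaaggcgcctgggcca
Onecut1, plus strand, chr9:74861671-74861920: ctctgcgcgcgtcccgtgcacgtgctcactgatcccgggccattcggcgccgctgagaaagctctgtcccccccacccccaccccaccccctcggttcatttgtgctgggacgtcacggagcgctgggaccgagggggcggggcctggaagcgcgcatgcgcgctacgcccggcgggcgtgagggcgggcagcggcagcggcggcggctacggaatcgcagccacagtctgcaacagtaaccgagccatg
Prox1, minus strand, chr1:190170828-190171077: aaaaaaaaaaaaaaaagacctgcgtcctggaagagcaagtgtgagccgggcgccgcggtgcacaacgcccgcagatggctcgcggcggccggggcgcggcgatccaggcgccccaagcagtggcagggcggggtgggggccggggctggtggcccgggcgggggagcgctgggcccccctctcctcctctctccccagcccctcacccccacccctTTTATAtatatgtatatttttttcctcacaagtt
Cebpb, plus strand, chr2:167688665-167688914: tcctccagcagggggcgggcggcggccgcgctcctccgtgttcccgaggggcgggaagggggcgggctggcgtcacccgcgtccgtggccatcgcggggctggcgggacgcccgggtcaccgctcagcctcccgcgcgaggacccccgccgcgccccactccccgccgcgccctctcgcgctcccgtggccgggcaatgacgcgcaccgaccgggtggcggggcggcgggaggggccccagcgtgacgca

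Both strands were searched for 7 motifs. The letters TATAAA of the TATA box lay 36 bases before the start of Foxa3, 30 before that of Cebpa and, on the other strand, 34 before that of Prox1. In Nr5a2 they lay far from the start, 181 bases before it, also on the other strand. Thus 4 of the 9 windows held these letters at some position, as did 12.4% of the 32851 promoter windows of the same length. The CCAAT box was found in Hnf4a, Foxa1, Foxa2 and Foxa3, against 33.8% of all windows. The ONECUT motif ATNGAT was found in Foxa2 and Foxa3, against 18.9% of all windows. The FOXA motif TGTTTAC was found in Foxa1 alone among the 9 (3.17% of all windows). No member's window held the letters of the C/EBP motif TTGCNNAA, the HNF4A motif CAAAGTNCA or the NR5A2 motif CAAGGNCA, which 9.56%, 1.19% and 5.53% of all windows held. The windows of Onecut1 and Cebpb held none of the 7. They had GC contents of 71.6% and 81.6%, against 43.2% in Nr5a2.

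The libraries held 13142588 to 60046937 expected counts, with PA replicate 1 the shallowest and LA+NTP replicate 2 the deepest. The member with the fewest reads was Onecut1, with 26 to 365 counts a library, and the other 8 members had between 289 and 18416. Hepatocyte markers were abundant, but not all of them. Alb, the gene of serum albumin, stood between 1929 and 2818 FPKM, while the urea cycle genes Cps1 and Arg1 stood at 1.52 to 4.61 and 0.23 to 1.08 FPKM. Of the other cell types, the macrophage marker Cd68 reached 122 to 287 FPKM while the Kupffer cell marker Clec4f stayed at or under 0.29, and the cholangiocyte genes Krt19 and Epcam stayed under 1 FPKM beside 398 to 691 for Spp1. In bulk libraries, fewer cells of a type and less RNA per cell cannot be told apart.

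**Figure D1:**
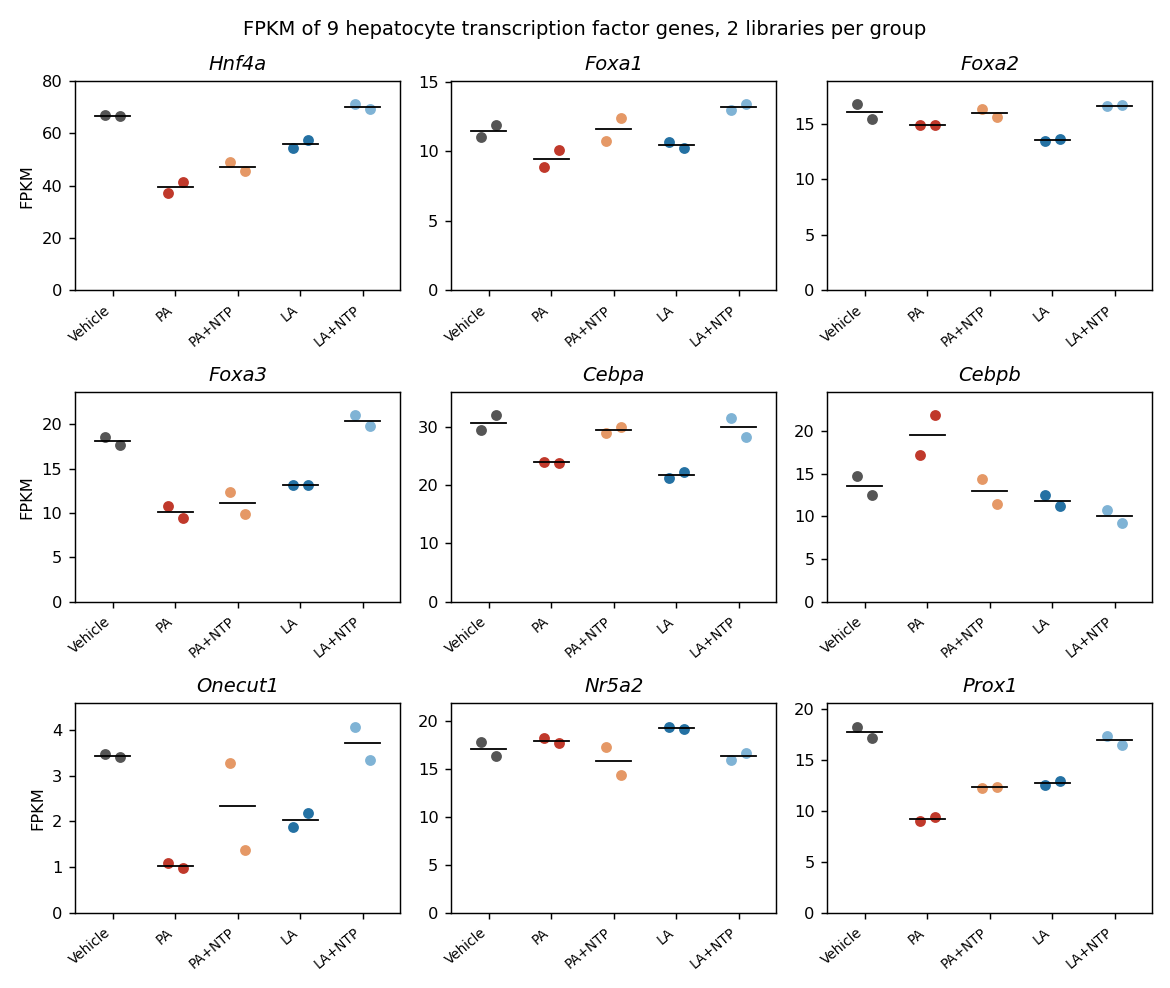
FPKM of each of the 9 genes (vertical axis, from 0) in the 5 groups (horizontal axis), with 1 point per library and a line at the mean of 2. In Hnf4a, Foxa3, Onecut1 and Prox1 both PA points lie under both Vehicle points, in Cebpb both lie above, and in Nr5a2 they overlap. The share of all genes so separated was not counted.

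Levels between genes are given in FPKM, a read density scaled for transcript length and library size. In Vehicle cells Hnf4a was the highest of the 9, at 67.0 and 66.5 FPKM. Cebpa came next, at 29.4 and 31.9 FPKM, with no overlap with Hnf4a. Foxa3, Prox1, Nr5a2 and Foxa2 followed with means of 18.1, 17.7, 17.1 and 16.1 FPKM, and the ranges of neighbors in this order overlapped. Cebpb (14.7 and 12.5 FPKM) and Foxa1 (11.1 and 11.9 FPKM) were lower without overlap, and Onecut1 was the lowest at 3.48 and 3.41 FPKM. Across all 10 libraries the highest value was 4.16 times the lowest for Onecut1, 2.36 times for Cebpb and 2.23 times for Foxa3. Foxa2 and Nr5a2 varied least, by 1.24 and 1.35 times.

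To examine what palmitate did to these genes, PA was compared with Vehicle. Hnf4a, Foxa3, Onecut1 and Prox1 were lower, to 30.0% to 58.9% of their Vehicle means, and Cebpb stood at 144% of its Vehicle mean. A gene was called at an adjusted p under 0.05 in edgeR's quasi-likelihood test over the 14097 genes tested and a fold change of at least 1.5. By this rule 4 of the 9 members were called, all lower, beside 14.9% of all genes tested in either direction and 8.92% called lower. The median log2 fold change of the 9 was -0.33, and that of all genes tested -0.01. At the adjusted p alone 6 of 9 passed, beside 45.5% of all genes. The summed FPKM of 11 hepatocyte markers was also lower, at 6460 to 6920 with Vehicle and 4320 to 4800 with PA. Abundant genes, Alb above all, weigh most in this sum. Of the 11, 4 were called lower (Apoa1, Ttr, Ahsg and Serpinc1), 36.4% beside the 8.92% of all genes. Fga, Cyp2e1 and Arg1 lay above 0, at log2 fold changes of 0.06, 0.18 and 0.26. The part of the markers' decline in the changes of the 9 was not tested.

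Onecut1, a factor of liver and biliary development, had the largest change of the 9. Its level was 3.48 and 3.41 FPKM in the Vehicle libraries and 1.09 and 0.98 in the PA libraries. The groups were far apart, with a log2 fold change of -1.72 ± 0.33 (adjusted p = 0.000649), although the estimate carries the largest SE among the 9. Prox1, the corepressor, stood at 18.3 and 17.2 FPKM with Vehicle and 9.03 and 9.42 with PA. Its log2 fold change was -0.91 ± 0.07 (adjusted p = 4.71e-07), and the libraries within each group were close.

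Hnf4a fell as well, from 67.0 and 66.5 FPKM to 37.2 and 41.6. Both PA libraries were far below both Vehicle libraries, with a log2 fold change of -0.73 ± 0.06 (adjusted p = 1.4e-06). Among the forkhead genes, Foxa3 was 18.6 and 17.6 FPKM with Vehicle and 10.8 and 9.4 with PA, a log2 fold change of -0.83 ± 0.10 (adjusted p = 2.2e-05). Its paralogs Foxa1 and Foxa2 did not pass the test, with log2 fold changes of -0.23 ± 0.09 (adjusted p = 0.0591) and -0.08 ± 0.07 (adjusted p = 0.414). In FPKM neither gene's PA libraries overlapped its Vehicle libraries. The share of all genes with such a separation was not counted, here or in the comparisons below.

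The C/EBP genes stood on opposite sides of 0. Cebpa was 29.4 and 31.9 FPKM with Vehicle and 24.0 and 23.8 with PA, and its log2 fold change of -0.33 ± 0.07 (adjusted p = 0.0021) passed the adjusted p but was smaller than 1.5-fold. Cebpb was 14.7 and 12.5 FPKM with Vehicle and 17.2 and 21.9 with PA. Its log2 fold change was 0.58 ± 0.13 (adjusted p = 0.00281), just under the 1.5-fold line, so that it passed the adjusted p and was not called. Without PA replicate 2 the value was 0.38, the lowest over the fits that each left out 1 library, and 0.72 was the highest. Nr5a2 overlapped between the groups, at 17.8 and 16.4 FPKM with Vehicle and 18.2 and 17.6 with PA, with a log2 fold change of 0.10 ± 0.08 (adjusted p = 0.35).

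**Figure D2:**
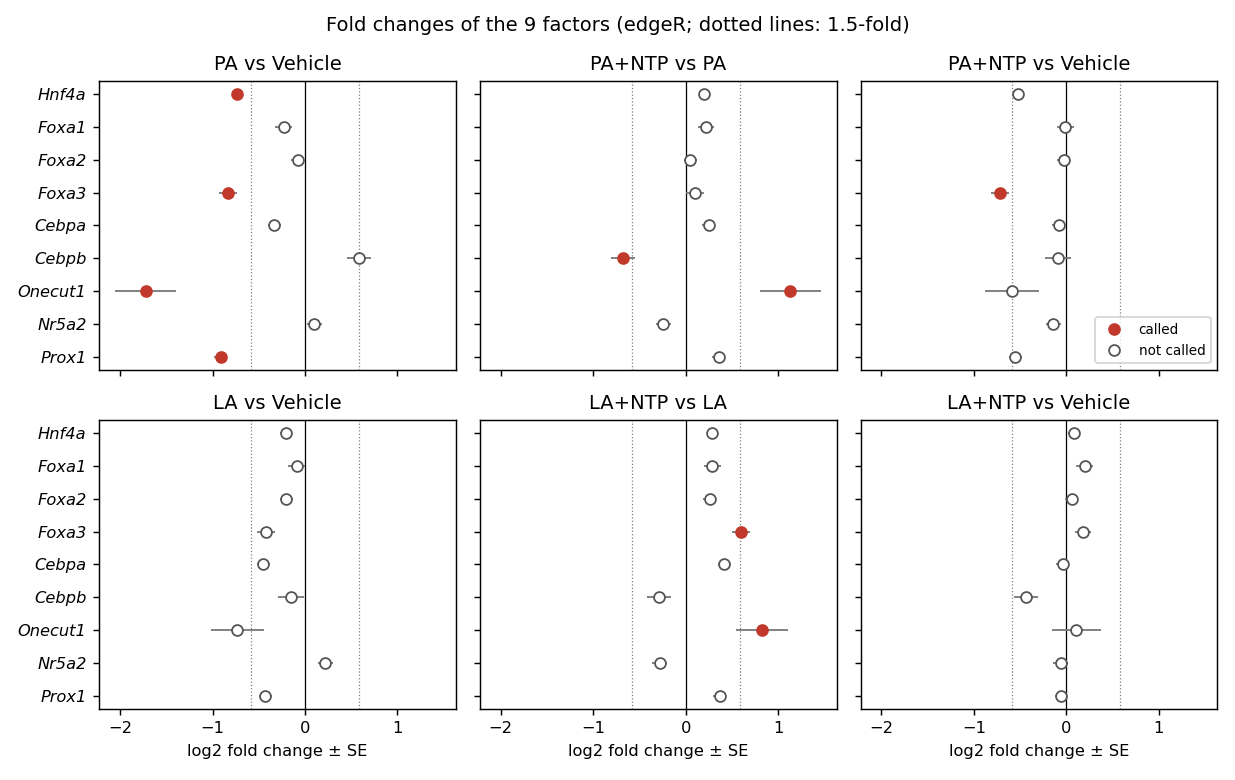
Log2 fold change with its SE (horizontal axis) of each gene (vertical axis) in 6 comparisons by edgeR, with filled points for called genes and dotted lines at 1.5-fold. Filled points lie left of 0 for Hnf4a, Foxa3, Onecut1 and Prox1 in PA vs Vehicle, and no point is filled in LA vs Vehicle or LA+NTP vs Vehicle.

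The libraries also differed in how counts depended on base composition. Across the genes tested, the rank correlation of a library's centred expression with transcript GC content was -0.481 to -0.47 in the PA libraries, -0.571 to -0.565 in the LA libraries, and 0.344 to 0.573 in the Vehicle and NTP libraries. These correlations are over genes, which share the library. The members span from 45.3% GC in Prox1 to 67.2% in Cebpb, around a median of 50.1% for all genes tested, and so the comparisons were repeated with each library freed of a smooth dependence on GC content. For PA vs Vehicle 4 members were again called, beside 8.48% of all genes, and the median of the 9 moved from -0.33 to -0.04. Onecut1, Prox1 and Foxa3 stayed called, with log2 fold changes of -1.73 (adjusted p = 0.0014), -1.11 (adjusted p = 2.5e-07) and -0.63 (adjusted p = 0.000469). Hnf4a kept its direction at -0.56 (adjusted p = 2.38e-05) but was then smaller than 1.5-fold. Cebpb became larger and was called, at 1.08 (adjusted p = 1.73e-05), while Cebpa turned to 0.17 (adjusted p = 0.108) and Foxa2 to 0.23 (adjusted p = 0.0271). The part of GC dependence in the changes of the members was not tested beyond this removal.

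**Figure D3:**
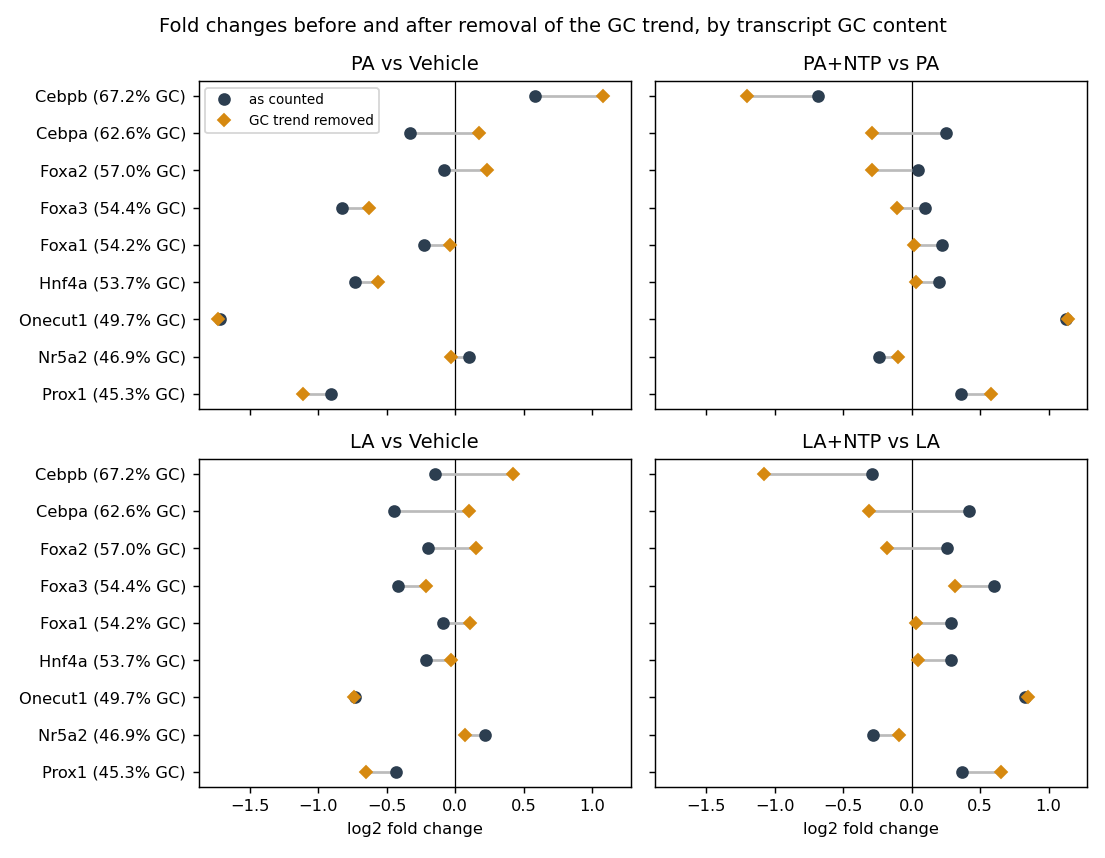
Log2 fold changes (horizontal axis) of the 9 genes, ordered by transcript GC content (vertical axis), as counted (circles) and after the GC trend was removed (diamonds). Onecut1 near the median GC content hardly moves, whereas Cebpb and Cebpa at the top move furthest and Cebpa crosses 0 in all 4 comparisons.

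Linoleate was examined in the same way. No member was called in LA vs Vehicle, where 10.6% of all genes were, and the 9 log2 fold changes had a median of -0.21 beside -0.01 for all genes. By adjusted p alone 6 of 9 passed, beside 41.3% of all genes. Among them Prox1 was 12.5 and 13.0 FPKM with LA against 18.3 and 17.2 with Vehicle, a log2 fold change of -0.43 ± 0.07 (adjusted p = 0.000157). Cebpa and Foxa3 were also lower by less than 1.5-fold, at 21.3 and 22.2 FPKM with LA and a log2 fold change of -0.45 ± 0.07 (adjusted p = 0.000208) for Cebpa, and 13.1 and 13.1 FPKM and -0.42 ± 0.10 (adjusted p = 0.00348) for Foxa3.

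The other members moved less or varied more. Hnf4a was 54.4 and 57.6 FPKM with LA, below both Vehicle libraries, with a log2 fold change of -0.21 ± 0.06 (adjusted p = 0.0163). Onecut1 was 1.87 and 2.18 FPKM, and its log2 fold change of -0.73 ± 0.29 (adjusted p = 0.0613) did not pass the adjusted p. Nr5a2 was the single member that was higher, at 19.4 and 19.1 FPKM and 0.22 ± 0.08 (adjusted p = 0.0417), and Foxa2 was lower at -0.20 ± 0.07 (adjusted p = 0.0438). Foxa1 and Cebpb did not pass, with log2 fold changes of -0.09 and -0.15. After removal of the GC trend Prox1 was called at -0.65 (adjusted p = 4.9e-05), beside 3.28% of all genes. Hnf4a, Foxa3 and Nr5a2 were then -0.03, -0.21 and 0.07 and no longer passed the adjusted p, and the values of Cebpa, Foxa1, Foxa2 and Cebpb changed sign to 0.10, 0.11, 0.15 and 0.42.

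PA+NTP was compared with PA to ask whether NTP pretreatment altered the response to palmitate. Onecut1 was higher and Cebpb lower, and these 2 of 9 members were called, beside 13.9% of all genes and 8.74% called higher. The median log2 fold change was 0.20 for the members and 0.01 for all genes. By adjusted p alone 6 of 9 passed, beside 44.7% of all genes. Cebpb, the acute-phase member, was 17.2 and 21.9 FPKM with PA and 14.4 and 11.5 with PA+NTP. Its groups did not overlap in FPKM, a separation not counted over all genes, and its log2 fold change was -0.68 ± 0.13 (adjusted p = 0.000834). Without PA replicate 2 it was -0.48, and without PA+NTP replicate 2 it was -0.55, both smaller than 1.5-fold. After removal of the GC trend it was -1.20 (adjusted p = 1.21e-05).

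Onecut1 was 3.29 and 1.38 FPKM in the PA+NTP libraries, which disagreed by over 2-fold with each other. The first was near the Vehicle level and the second near the PA level. The log2 fold change against PA was 1.13 ± 0.33 (adjusted p = 0.0117), and it was 0.40 (adjusted p = 0.259) without PA+NTP replicate 1 and 1.03 (adjusted p = 0.126) without PA replicate 2. The call thus rests on single libraries.

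Prox1 and Hnf4a were higher with PA+NTP than with PA by less than 1.5-fold. Prox1 was 12.3 and 12.4 FPKM, a log2 fold change of 0.36 ± 0.07 (adjusted p = 0.000719), and 0.58 (adjusted p = 6.36e-05) after removal of the GC trend. Hnf4a was 49.2 and 45.5 FPKM, a log2 fold change of 0.20 ± 0.06 (adjusted p = 0.0172), and 0.03 (adjusted p = 0.794) after that removal. Cebpa rose from 24.0 and 23.8 to 29.0 and 30.0 FPKM, with a log2 fold change of 0.25 ± 0.07 (adjusted p = 0.0124). After the removal Cebpa passed the adjusted p in the opposite direction, at -0.29 (adjusted p = 0.0142). Nr5a2 was lower, at -0.24 ± 0.08 (adjusted p = 0.0256), and was -0.10 (adjusted p = 0.385) after the removal. Foxa3 overlapped between the groups, at 12.4 and 9.92 FPKM with PA+NTP and 10.8 and 9.4 with PA. Foxa1 and Foxa2 had log2 fold changes of 0.22 and 0.05 without passing. After the removal Foxa2 was lower at -0.29 (adjusted p = 0.00848), by less than 1.5-fold. With the GC trend removed, Cebpb and Onecut1 were again the members called, beside 6.02% of all genes.

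In LA+NTP vs LA, Foxa3 and Onecut1 were called higher, 2 of 9 members, beside 19.3% of all genes and 11.7% called higher. The median was 0.29 for the members and 0.01 for all genes. Nearly every member, 8 of 9, passed the adjusted p alone, as did 51.5% of all genes. Foxa3 was 13.1 and 13.1 FPKM with LA and 21.0 and 19.8 with LA+NTP. The groups were well apart and the log2 fold change was 0.60 ± 0.10 (adjusted p = 0.000118), close above the 1.5-fold line. It was 0.32 (adjusted p = 0.0232) after removal of the GC trend, which is below that line. Onecut1 was 1.87 and 2.18 FPKM with LA and 4.08 and 3.34 with LA+NTP, a log2 fold change of 0.83 ± 0.28 (adjusted p = 0.0231). Its adjusted p was above 0.05 without LA replicate 1 (0.148), LA replicate 2 (0.0592) or LA+NTP replicate 1 (0.11).

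Cebpa, Prox1, Hnf4a, Foxa1 and Foxa2 also rose by less than 1.5-fold. Cebpa was 31.5 and 28.2 FPKM with LA+NTP, a log2 fold change of 0.42 ± 0.07 (adjusted p = 0.000212). Prox1 was 17.4 and 16.5 FPKM and 0.37 ± 0.07 (adjusted p = 0.000263), and Hnf4a was 71.1 and 69.4 FPKM and 0.29 ± 0.06 (adjusted p = 0.0015). In each of these genes both LA+NTP libraries lay above both LA libraries, a separation whose share over all genes was not counted. Nr5a2 was lower at -0.28 ± 0.08 (adjusted p = 0.00809), and Cebpb did not pass, at -0.29 ± 0.13 (adjusted p = 0.0815). Removal of the GC trend left 5.73% of all genes called and 3 members, Cebpb at -1.08 (adjusted p = 2.15e-05), Onecut1 at 0.85 (adjusted p = 0.0406) and Prox1 at 0.65 (adjusted p = 1.78e-05). It turned Cebpa to -0.31 (adjusted p = 0.00774) and Foxa2 to -0.18 (adjusted p = 0.0661). Hnf4a, Foxa1 and Nr5a2 were then 0.05, 0.03 and -0.09, and none of them passed the adjusted p.

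The NTP groups were then set against Vehicle, with which their GC dependence was alike in sign. In PA+NTP vs Vehicle 1 member was called, Foxa3, beside 2.85% of all genes and 1.64% called lower. The median log2 fold change was -0.14 for the members and 0.01 for all genes. All 9 values were below 0, a direction whose share over all genes was not counted. Foxa3 was 12.4 and 9.92 FPKM with PA+NTP against 18.6 and 17.6 with Vehicle, a log2 fold change of -0.72 ± 0.10 (adjusted p = 0.000374). Hnf4a and Prox1 passed the adjusted p below 1.5-fold, at -0.52 ± 0.06 (adjusted p = 0.000152) and -0.55 ± 0.07 (adjusted p = 0.000152), so that 3 of 9 passed it, beside 10.1% of all genes. Removal of the GC trend moved these 3 by at most 0.02, to -0.74, -0.53 and -0.53. Onecut1 was -0.59 ± 0.29 (adjusted p = 0.22), and without PA+NTP replicate 1 it was -1.32 (adjusted p = 0.00276). Foxa1, Foxa2, Cebpa, Cebpb and Nr5a2 ranged from -0.14 to -0.01 and none passed. Of these, Foxa1, Foxa2 and Cebpb lay above 0 in some of the fits without 1 library.

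No member was called in LA+NTP vs Vehicle, where 0.0922% of all genes were called and 0.284% passed the adjusted p. The log2 fold changes ranged from -0.44 ± 0.13 (adjusted p = 0.155) for Cebpb to 0.20 ± 0.09 (adjusted p = 0.31) for Foxa1. Cebpb was 10.8 and 9.27 FPKM with LA+NTP, below both Vehicle libraries, and after removal of the GC trend it was called at -0.66 (adjusted p = 0.0482). The NTP effects under PA and under LA were also tested against each other. No member and no gene was called by edgeR for this difference. At an unadjusted p under 0.05 there were 1029 genes. DESeq2 called 5, and edgeR without the filter on low counts called 41. Foxa3 had the smallest p among the members, with a log2 difference of -0.49 ± 0.14 (adjusted p = 0.629) and an unadjusted p of 0.0035.

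Ratios within a library show how the balance among related factors shifted, and they are given as descriptions. The ratio of Cebpb to Cebpa in FPKM was 0.501 and 0.392 with Vehicle and 0.717 and 0.918 with PA. With PA+NTP it was 0.498 and 0.382, overlapping Vehicle, with LA 0.587 and 0.503, and with LA+NTP 0.341 and 0.328. Both genes are GC-rich, at 67.2% and 62.6%, and the ratio compares them inside the same library. Of the summed FPKM of the 3 forkhead genes, Foxa3 made up 40.1% and 39.3% with Vehicle, 31.3% and 27.4% with PA, and 31.4% and 26.2% with PA+NTP. With LA its share was 35.2% and 35.4%, and with LA+NTP 41.5% and 39.8%. The sum itself was 44.9 to 46.4 FPKM with Vehicle, 34.3 to 34.5 with PA and 49.8 to 50.6 with LA+NTP. Prox1 and its partner Nr5a2 had a ratio of 1.03 and 1.05 with Vehicle and 0.496 and 0.534 with PA. This ratio was 0.714 and 0.863 with PA+NTP, 0.646 and 0.678 with LA, and 1.1 and 0.992 with LA+NTP.

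**Figure D4:**
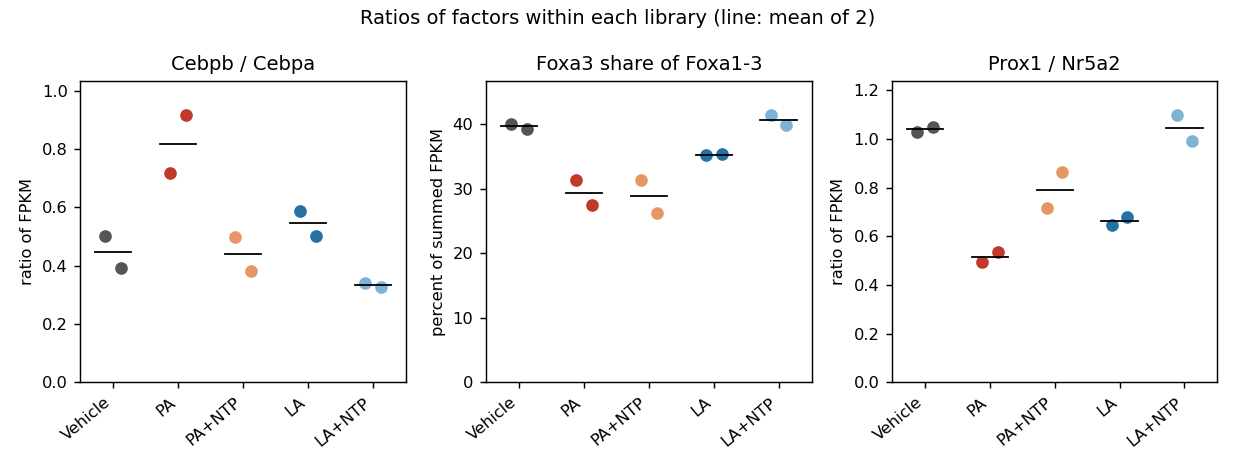
Ratio of Cebpb to Cebpa, Foxa3 share of the summed Foxa1, Foxa2 and Foxa3 FPKM in percent, and ratio of Prox1 to Nr5a2 (vertical axes, from 0) in each library of the 5 groups, with a line at the mean of 2. The Cebpb to Cebpa ratio is highest in the 2 PA libraries (0.717 and 0.918), and the Foxa3 share stays at 26.2% to 31.4% in PA and PA+NTP.

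The positions of the genes bear on how reads were assigned. In GENCODE M21 on GRCm38, the single exon of Cebpb, from 167688915 to 167690418 on chromosome 2, overlaps exons of Tmem189 on the other strand. Tmem189 was 14.4 and 14.5 FPKM with Vehicle, 12.6 and 10.7 with PA, 16.4 and 17.6 with PA+NTP, 9.81 and 9.39 with LA, and 16.5 and 15.7 with LA+NTP. In FPKM Tmem189 was lower with PA than with Vehicle and higher with PA+NTP than with PA, opposite to Cebpb in both. With LA both genes lay below Vehicle, and with LA+NTP Tmem189 lay above LA and Cebpb below it. These FPKM values still hold the GC trend, and the part of Tmem189 reads in the changes of Cebpb was not tested. Exons of Cebpa (chromosome 7, 35119293 to 35121928) and Prox1 (chromosome 1, 190118035 to 190170714) overlap exons of Gm45091 and Prox1os on the other strand, and exons of Onecut1 (chromosome 9, 74861921 to 74891781) overlap those of Gm20649 on the same strand. No source used here states whether the counting used strand, so reads of such pairs may not have been told apart. Hnf4a (chromosome 2, 163506808 to 163572910), Foxa1 (chromosome 12, 57540628 to 57546916), Foxa2 (chromosome 2, 148042877 to 148046969), Foxa3 (chromosome 7, 19013284 to 19023538) and Nr5a2 (chromosome 1, 136842571 to 136960448) share no exon with another gene there.

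Likeness between profiles was measured as the root mean square difference of centred log2 CPM over the 10 libraries, and is a description. The GC trend was left in these profiles. Among the members, Hnf4a and Prox1 were the most alike pair, at 0.0953, and Cebpb and Onecut1 the least, at 0.964. With the GC trend removed, Hnf4a and Prox1 lay further apart, at log2 fold changes of -0.56 and -1.11 in PA vs Vehicle. In LA+NTP vs LA they were then 0.05 and 0.65. Foxa1, Foxa2 and Cebpa lay within 0.153 of each other. Among 11115 genes with a mean of at least 1 FPKM, Eepd1 (0.0593) and Klc4 (0.071) were most like Hnf4a, and Fam20a (0.0692) and Lrrk1 (0.0805) most like Prox1. Lrrc3 (0.0972) and Trp53inp2 (0.107) were most like Foxa3, Zfp808 (0.138) and Hgsnat (0.153) most like Cebpb, and Adam11 (0.201) and Sema4g (0.213) most like Onecut1.

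Paralogs of the members were examined as well. None of the 8 tested was called in PA vs Vehicle or in LA vs Vehicle. After removal of the GC trend 1, Ddit3, which encodes the stress-induced C/EBP homologous protein, was called higher with PA and lower in PA+NTP vs PA. Onecut2 was 9.85 and 10.4 FPKM with Vehicle, above Onecut1, and 12.8 and 13.5 with PA, a log2 fold change of 0.42 (adjusted p = 0.000234) that was 0.10 after removal of the GC trend. Cebpg, which dimerizes with other C/EBP proteins, had log2 fold changes of 0.48 (adjusted p = 1.64e-05) with PA and 0.52 (adjusted p = 1.35e-05) with LA, and was called lower in LA+NTP vs LA at -0.67 (adjusted p = 5.36e-07), which was -0.28 after the removal. Cebpd, another acute-phase member, was 1.01 and 0.9 FPKM with Vehicle and 2.33 and 1.63 with PA+NTP and was called higher there at 1.03 (adjusted p = 0.0201). Hnf4g was at or under 0.16 FPKM in every library, and its call in LA+NTP vs LA, at -2.08 (adjusted p = 0.0305), rests on few reads and was not called after the removal.

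Among other liver transcription factors, those called were lower with either FFA and higher with NTP. Of 30 tested, 5 were called lower with PA and 6 with LA, 7 were called higher in PA+NTP vs PA and 9 in LA+NTP vs LA, and none was called in the opposite direction. These were 16.7%, 20.0%, 23.3% and 30.0% of the list, beside 14.9%, 10.6%, 13.9% and 19.3% of all genes called in either direction. Their medians were -0.25, -0.25, 0.20 and 0.36, beside -0.01, -0.01, 0.01 and 0.01 for all genes. After removal of the GC trend 4, 2, 4 and 2 were called, in the same directions, which was 13.3%, 6.67%, 13.3% and 6.67% beside 8.48%, 3.28%, 6.02% and 5.73% of all genes, with medians of -0.09, -0.06, 0.03 and 0.05. Zbtb20, a repressor of fetal Afp, was 17.3 and 19.8 FPKM with Vehicle and 6.51 and 8.7 with PA. It was called in all 4 comparisons, at -1.21, -0.91, 1.09 and 1.10, and stayed called after the removal. Mlxipl, the carbohydrate response factor ChREBP, was called lower with LA at -0.75 and higher in PA+NTP vs PA at 1.03 and in LA+NTP vs LA at 0.92, of which only the value in PA+NTP vs PA, 0.72, stayed called. Nr1h2, the oxysterol receptor LXR beta, was -0.74 with LA and 0.99 in LA+NTP vs LA, and Esrra, a regulator of mitochondrial genes, was -0.68 with PA. These were -0.23, 0.34 and -0.20 after the removal and no longer called. Nr0b2, the orphan receptor SHP that represses NR5A2 and HNF4A, was 1.43 and 1.3 FPKM with Vehicle and 0.27 and 0.44 with PA, a log2 fold change of -1.78 (adjusted p = 0.00255).

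**Figure D5:**
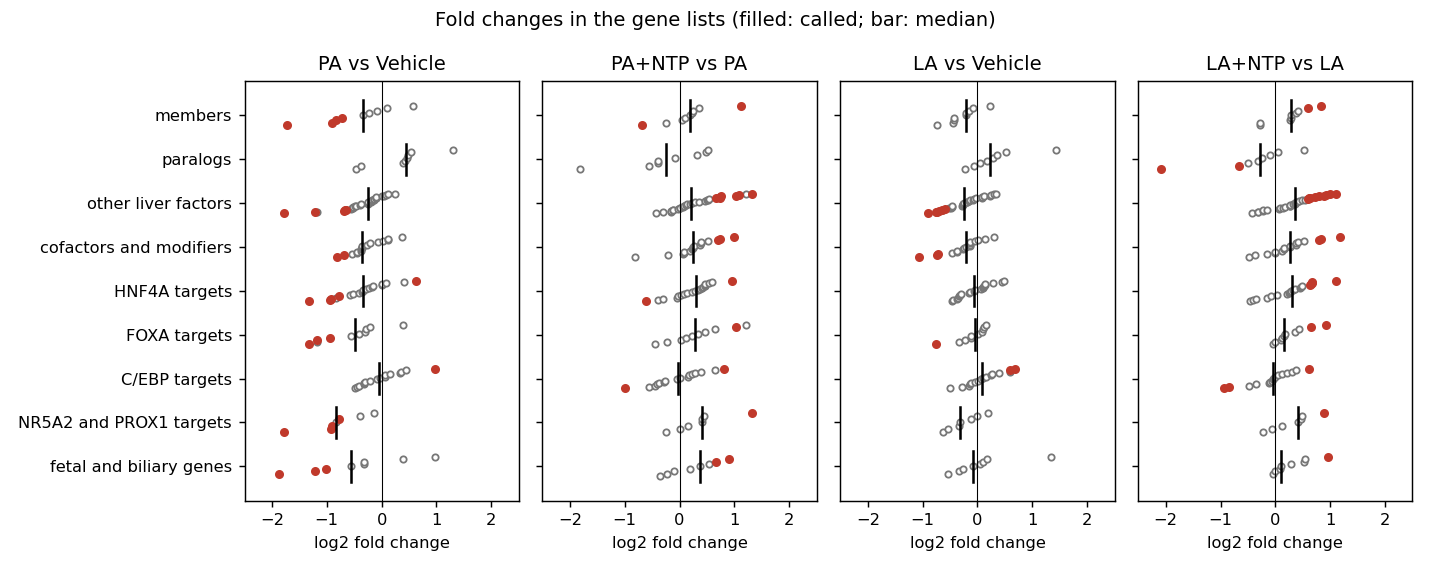
Log2 fold changes (horizontal axis) of the genes of each list (vertical axis) in 4 comparisons, with filled points for called genes and bars at the list median. As counted, filled points of the other liver factors and of the cofactors lie left of 0 with PA and LA and right of 0 with NTP, and with the GC trend removed 1 cofactor each was called in the opposite direction with PA and in both comparisons of NTP. Dlk1, with few reads, lies beyond the axis in each panel.

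Calls among cofactors and chromatin modifiers were also counted. Of 17 tested, 2 were called lower with PA, 3 lower with LA, and 3 higher in each comparison of NTP, where Ppargc1b, Crebbp and Arid1a were called. The shares were 11.8%, 17.6%, 17.6% and 17.6%, beside the 14.9%, 10.6%, 13.9% and 19.3% of all genes. Once the GC trend was removed 2 were called lower and 1 higher with PA, 3 lower with LA, and 2 higher and 1 lower in each comparison of NTP. In each comparison this was 17.6% of the list, beside 8.48%, 3.28%, 6.02% and 5.73% of all genes. The gene called in the opposite direction was Trib3, a stress-induced pseudokinase, in each case. Ppargc1b, a coactivator of nuclear receptors, was 1.27 and 1.17 FPKM with Vehicle, 0.49 and 0.65 with LA and 1.22 and 1.37 with LA+NTP. Its log2 fold changes of -1.06 with LA and 1.17 in LA+NTP vs LA became -0.68 and 0.67 after removal of the GC trend. The acetyltransferase gene Crebbp was -0.69 (adjusted p = 7.31e-06) with PA and -0.74 (adjusted p = 5.84e-06) with LA.

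Genes regarded as targets of the factors differed between the lists. Of 7 tested targets of NR5A2 and PROX1, 4 were called lower with PA (Nr0b2, Abcg5, Abcg8 and Slc10a1), with a median of -0.84, and none with LA. The 4 were 57.1% of a short list, beside 8.92% of all genes called lower. The removal left 3 called lower with PA, with a median of -0.75. Abcg8, a subunit of a sterol exporter, was 1.22 and 1.55 FPKM with Vehicle and 0.68 and 0.76 with PA, a log2 fold change of -0.90 (adjusted p = 0.00194). Of 20 tested HNF4A targets, 4 were called lower with PA (Apoa1, Apoa2, Apoc3 and Ttr), 1 higher (Otc) and none with LA. Those called with PA were 25.0%, beside 14.9% of all genes. With the GC trend removed the same 4 were lower, Pklr in place of Otc was higher with PA, and none was called with LA. In LA+NTP vs LA 5 were called higher, 25.0% of the list beside 11.7% of all genes called higher. They were led by Apoc3, the clotting factor gene F12 at 0.67 and Apoa2 at 0.66, and Apoc3 alone stayed called after the removal. Otc was called lower in PA+NTP vs PA at -0.61, which was -0.14 (adjusted p = 0.666) after the removal and not called. Apoa1, the main HDL apolipoprotein, was 547 and 440 FPKM with Vehicle and 208 and 181 with PA, at -1.32 (adjusted p = 6.38e-06), and 276 and 231 with PA+NTP, where it was still called lower than Vehicle at -0.99 (adjusted p = 0.000453). Apoc3 was called lower with PA at -0.93 and higher with NTP at 0.96 under PA and 1.11 under LA.

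Of 10 tested FOXA targets, 3 were called lower with PA (Ttr, Igfbp1 and Apoa1), with a median of -0.49, and the same 3 after removal of the GC trend. These were 30.0% of the list, beside 8.92% of all genes called lower. Igfbp1 was 167 and 151 FPKM with Vehicle, 69.4 and 69.0 with PA and 77.0 and 79.7 with PA+NTP, and was called lower than Vehicle in both, at -1.17 and -1.05. Of 16 tested C/EBP targets none was called lower with PA and 1, the acute-phase gene Crp, was called higher at 0.98 (adjusted p = 6.87e-06), with a list median of -0.06. This was 6.25% of the list, beside 14.9% of all genes. Where Cebpb was lower, in PA+NTP vs PA, 1 was called lower and 1 higher, 12.5% of the list beside 13.9% of all genes. Ugp2, an enzyme of glycogen synthesis, was 72.5 and 68.9 FPKM with PA and 37.5 and 36.7 with PA+NTP, at -0.99 (adjusted p = 1.08e-07), and -0.52 after removal of the GC trend, no longer called. Lcn2, another acute-phase gene, was called higher at 0.82 (adjusted p = 3.27e-05), and stayed called at 0.62. Ugp2 was also called higher with LA, at 0.69, and lower in LA+NTP vs LA, at -0.85. These were 0.23 and -0.27 after the removal and no longer called. Hamp, the hepcidin gene, was called lower in LA+NTP vs LA at -0.94 and stayed called at -0.97. Alb was -0.30 (adjusted p = 0.0016) with PA and 0.22 (adjusted p = 0.0126) in PA+NTP vs PA, both below 1.5-fold. Several targets belong to 2 lists, so the counts are not independent.

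Of 9 tested genes of fetal hepatocytes and the biliary tree, 3 were called lower with PA (Krt19, Cd24a and Sox4) and none higher, and 2 lower after removal of the GC trend. The 3 were 33.3% of the list, beside 8.92% of all genes called lower. Sox4 was 67.2 and 70.1 FPKM with Vehicle and 33.5 and 33.4 with PA, at -1.01 (adjusted p = 2.07e-06), and rose with NTP at 0.91 under PA and 0.96 under LA. Sox9, a biliary factor, was called higher in PA+NTP vs PA at 0.66. The hepatocyte markers summed to 4860 to 5810 with PA+NTP, 6980 to 7010 with LA and 7440 to 7860 with LA+NTP. The summed FPKM of 10 Kupffer cell and macrophage markers was 217 to 218 with Vehicle, 218 to 252 with PA, 279 to 313 with PA+NTP, 139 to 143 with LA and 194 to 206 with LA+NTP. Most of that sum was Cd68, and single genes of the list moved apart with PA, where Marco and Lyz2 were called higher, at log2 fold changes of 2.46 and 0.70, and Cd5l lower, at -1.11. Stellate cell and fibroblast markers summed to 31.3 to 32.0 FPKM with Vehicle, 25.3 to 25.4 with PA, 29.1 to 29.3 with PA+NTP, 29.7 to 29.9 with LA and 33.5 with LA+NTP. Of 8 tested, 5 were called lower with PA (Lrat, Reln, Pdgfrb, Col1a1 and Acta2), with a median of -0.63. This was 62.5% of a short list, beside 8.92% of all genes called lower. After removal of the GC trend only Lrat and Acta2 stayed called, with a median of -0.53. Endothelial markers summed to 51.1 to 52.4 FPKM with Vehicle, 38.6 to 42.5 with PA, 39.1 to 44.8 with PA+NTP, 42.8 to 44.9 with LA and 52.3 to 53.5 with LA+NTP, and none of 9 was called with PA. Over all libraries, cholangiocyte markers, nearly all Spp1, summed to 407 to 704, and the 6 lymphocyte and neutrophil markers listed to 0.79 to 1.32. The part of cell composition in the changes of the factors was not tested.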

How the data were processed

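RNA sequencing was analysed in 10 libraries of primary mouse hepatocytes, 2 in each of 5 groups named by the sample labels. The deposited expected counts are estimates per gene by RSEM, after alignment by the authors with HISAT and Bowtie2 to mm10 per the submitters' processing notes, and their versions were not stated. The deposited FPKM values were scaled by the authors for transcript length and library size. The 9 members and all gene lists were chosen with earlier results of these data known.

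After rounding, expected counts entered edgeR 4.0.16 (R 4.3.3) and its quasi-likelihood F test, with TMM factors (0.977 to 1.04), filterByExpr (14097 genes kept, 3958 dropped), 5 groups as 1 factor and Benjamini-Hochberg adjustment over all genes tested. A called gene had an adjusted p under 0.05 and changed by 1.5-fold or more. An exact permutation test of 2 against 2 libraries cannot go below 0.333 and was not used. The authors' NOISeq test on RPKM was replaced because the deposited expected counts need a count model. The fit was tested on simulated data. Depth ranged from 13142588 to 60046937 expected counts. Replicates differed beyond sampling noise in every group.

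The text names the 9 members, from each list up to 3 called genes with the largest change and a mean of at least 1 FPKM per comparison, the genes Cebpd, Cebpg, Onecut2, Hnf4g, Nr0b2 and Alb in any case, and the 2 genes most like each called member. Other genes in counts of 5 or fewer, Tmem189, Dlk1 and the markers were named after their values were seen. Some genes of the lists are not reported here and were left out of the list counts and medians. The GC trend was removed by loess (span 0.4) on transcripts of GENCODE M21. Promoters are from RefSeq. Alternative fits used DESeq2 1.42.0, no filter, scaling by library size, a mean of at least 1 FPKM, limma 3.58.1 on log2(FPKM + 1) and log2(FPKM + 0.1), only the groups compared, a replicate block, removal of GC or length trends, thinning to 13142555 counts, no fold threshold, and leaving out each library. Same-numbered libraries had deviations that correlated from -0.0848 to 0.129, and labels give no shared origin, so numbers were not taken as pairs. Replicate numbers follow the sample titles. In the names of the deposited tables, replicate 1 carries number 1 (PA, PA+NTP) or 2 (the other groups), and replicate 2 carries number 3 in all 5 groups.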

Additional observations from a re-analysis of the deposited data

Results flagged for a closer look

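The FFA effect on Cebpb, as a log2 fold change against Vehicle, was 0.58 with PA and -0.15 with LA, and in FPKM every library of PA lay above and every library of LA below both Vehicle libraries, though by 12.5 against 12.51 FPKM for the nearest pair of LA and Vehicle. With the GC trend removed the value of Cebpb with LA was 0.42, the same direction as with PA. PA and LA were given at different doses, and the difference between them was not tested. Opposite signs, also untested, were flagged in 5 target genes, although in Ttr and Abcg8 the LA libraries overlapped the Vehicle libraries. Other genes of the lists had opposite signs too, such as Apoa1 at -1.32 with PA and 0.12 with LA. Ttr was -0.94 with PA and 0.10 with LA, Abcg8 -0.90 and 0.19, and Gys2, glycogen synthase of liver, -0.48 and 0.27. Lcn2 was 0.35 with PA and -0.51 with LA, and Pklr, the liver pyruvate kinase, 0.41 and -0.30. With LA the values of Ttr, Abcg8 and Gys2 did not pass the adjusted p (0.643, 0.444 and 0.234). After removal of the GC trend Ttr with LA was -0.07, the same direction as with PA, and the other 4 kept opposite directions, with values with LA of 0.35 for Abcg8, 0.17 for Gys2, -0.32 for Lcn2 and -0.09 for Pklr, none of which passed the adjusted p. In Abcg8 the NTP effect was 0.15 under PA and -0.22 under LA. Its libraries moved in opposite directions, and neither effect passed the adjusted p (0.57 and 0.306). After removal of the GC trend they were -0.01 and -0.44, no longer opposite.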

How the results depend on the processing

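The count of called members (PA vs Vehicle 4, LA vs Vehicle 0, PA+NTP vs PA 2, LA+NTP vs LA 2, PA+NTP vs Vehicle 1, LA+NTP vs Vehicle 0) changed as follows. In PA vs Vehicle it was 5, Cebpb included, with the length trend removed. In LA vs Vehicle it was 1 with DESeq2, with no filter on low counts and with only the groups compared, in each case Onecut1, and 1, Prox1, with the GC trend removed. In PA+NTP vs PA it was 1 with limma on log2(FPKM + 1). In LA+NTP vs LA it was 3 with the GC trend removed, and 1 with the length trend removed and 1 with thinning to the smallest library. In PA+NTP vs Vehicle it was 2 with no filter, and in LA+NTP vs Vehicle 1 with the GC trend removed. Without a fold threshold it was 6 in PA vs Vehicle, LA vs Vehicle and PA+NTP vs PA, 8 in LA+NTP vs LA and 3 in PA+NTP vs Vehicle. Leaving out each library in turn gave 4 to 5 in PA vs Vehicle, 0 to 1 in LA vs Vehicle, 0 to 2 in PA+NTP vs PA, 0 to 2 in LA+NTP vs LA and 1 to 2 in PA+NTP vs Vehicle. The count was 0 in PA+NTP vs PA without PA replicate 2 and 0 in LA+NTP vs LA without LA+NTP replicate 1.

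Replicate numbers were not taken to pair the libraries. With the replicate block the count was 5 in PA vs Vehicle, Cebpb included at 0.60, and 1 in LA vs Vehicle, Onecut1, and over all genes it moved from 2103 to 2129 and from 1500 to 1519. With the replicate block and the GC trend removed it was 1 in LA vs Vehicle, 3 in LA+NTP vs LA and 1 in LA+NTP vs Vehicle. Under both fits with the GC trend removed, log2 fold changes of opposite sign were seen. In PA vs Vehicle these were Cebpa (0.17 in both), Foxa2 (0.23 in both) and Nr5a2 (-0.03, and -0.02 with the block). In LA vs Vehicle they were Cebpa (0.10 in both), Foxa1 (0.11, 0.12), Foxa2 (0.15 in both) and Cebpb (0.42, 0.41). In PA+NTP vs PA they were Cebpa (-0.29, -0.28), Foxa2 (-0.29 in both) and Foxa3 (-0.11, -0.12), and in LA+NTP vs LA Cebpa (-0.31 in both) and Foxa2 (-0.18 in both).

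Foxa3 in PA+NTP vs PA was -0.08 after thinning, and -0.04 to 0.23 over the fits without 1 library. In PA+NTP vs Vehicle Foxa1 was 0.01 with library-size scaling and with limma on either scale, 0.03 after thinning, and -0.15 to 0.11 without 1 library, where Foxa2 was -0.10 to 0.03 and Cebpb -0.24 to 0.04. These effects were not called in any of these fits, and the cause was not tested.

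Over all genes, the calls in PA vs Vehicle, LA vs Vehicle, PA+NTP vs PA and LA+NTP vs LA fell from 2103, 1500, 1953 and 2718 to 1196, 463, 849 and 808 with the GC trend removed (1227, 475, 880 and 821 with the replicate block as well) and to 1238, 880, 1192 and 1675 with limma on log2(FPKM + 1). In PA+NTP vs Vehicle they fell from 402 to 226 with that limma fit, 219 without Vehicle replicate 1 and 250 without Vehicle replicate 2. In LA+NTP vs Vehicle the 13 calls ranged from 0, without Vehicle replicate 2, to 67, with no filter, and the difference of the NTP effects had 0 to 41 calls, the most again with no filter.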
